A study of Homo sapiens with 27 samples.

Results

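The 8 genes described here are growth factor receptors and their RAS and PI3K effectors: the receptor tyrosine kinases EGFR, ERBB2, ERBB3, MET, IGF1R and EPHA2, the kinase BRAF and the lipid kinase subunit PIK3CA. They were chosen by name from 19974 protein-coding genes of the RefSeq annotation on chromosomes 1 to 22 and X, and each was followed as its annotated bounds plus 10 kb on either side. What was measured is where transposons had inserted in or beside these genes, not how strongly the genes were expressed. A receptor tyrosine kinase binds its ligand outside the cell and phosphorylates tyrosines inside it. Adaptors recruited to these tyrosines switch on RAS, which activates RAF kinases such as BRAF, and PI3K, whose catalytic subunit is encoded by PIK3CA. In colorectal cancer EGFR is a drug target, while BRAF and PIK3CA are recurrently mutated.

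The cells were HCT116, an established human colorectal carcinoma line, given a self-reporting transposon, whose insertion is read from RNA that runs out of the transposon into the neighbouring DNA. Puromycin at 3 µg/ml was applied over 2 weeks to all 9 groups, each of 3 libraries. In 4 groups a wild-type transposon was moved by piggyBac transposase in its plain form (group WT_PB), its hyperactive form (WT_hyPB), its re-engineered form (WT_rePB) and the form that is both re-engineered and hyperactive (WT_rehyPB). A short transposon was moved by the plain (short_PB) and the hyperactive form (short_hyPB). A symmetric transposon was moved by the re-engineered form (sym_rePB) and by the form with both changes (sym_rehyPB). The last group, WT_PBat, held a wild-type transposon and piggyBat, a related transposase from a bat. The changes behind the words short, symmetric and re-engineered are not given in the sources used here and HCT116 is 1 cell line. The labels do not say whether replicates were separate transfections, so p-values measure the spread between libraries, which may be technical.

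A site is a distinct genomic position at which a library lists a peak, and its level is given as sites per 10000 sites of the library. The 12 libraries of WT_PB, WT_hyPB, WT_rePB and WT_rehyPB, called the deep libraries, held 336323 to 570354 sites each. The other 15 libraries held 2814 to 9212, so 1 site in a gene is worth over 1 per 10000 there. For low counts they were pooled into short (6 libraries, 49279 sites), symmetric (6 libraries, 21490 sites) and piggyBat (3 libraries, 22957 sites), beside 5272047 sites pooled over the deep libraries. Depth and transposon type cannot be told apart across this divide. In a pool of cells the number of cells that carry an insertion and the RNA made per insertion cannot be told apart either. Replicates 1 and 2 of WT_hyPB shared 75.4% and 76.3% of their sites and replicates 1 and 3 of WT_PBat 52.5% and 42.5%, against 13.8% to 29.0% for the other pairs of deep libraries of 1 group. These linked libraries were also averaged as 1 sample, and in the 8 genes WT_hyPB replicates 1 and 2 shared 485 sites.

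In transposition of the piggyBac kind, the transposase inserts the element at the bases TTAA. Of 9811 distinct positions that fell in RefSeq promoter windows, 250 bases before to 50 after an annotated start, 93.7% began on TTAA, read from the GRCh38.p14 sequences. Of 34789 such windows genome-wide 46.1% held TTAA on either strand, and 30.2% of the 30394 TTAA in them carried a site in at least 1 library. TTAA reads the same on both strands. RefSeq windows were matched for 7 of the 8 genes, and not for ERBB3. The 3 windows printed next are those of the 8 genes in which a listed site fell on TTAA, here in capitals, and they show which TTAA of a promoter held a site.
EPHA2 (GRCh38.p14, chr1:16156020-16156319, minus strand): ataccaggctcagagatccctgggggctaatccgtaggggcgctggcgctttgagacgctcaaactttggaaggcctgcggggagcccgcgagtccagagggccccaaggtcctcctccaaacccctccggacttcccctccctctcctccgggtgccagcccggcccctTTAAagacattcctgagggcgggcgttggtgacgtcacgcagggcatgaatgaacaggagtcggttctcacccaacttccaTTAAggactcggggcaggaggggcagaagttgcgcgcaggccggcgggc
EGFR second start (GRCh38.p14, chr7:55109589-55109888, plus strand): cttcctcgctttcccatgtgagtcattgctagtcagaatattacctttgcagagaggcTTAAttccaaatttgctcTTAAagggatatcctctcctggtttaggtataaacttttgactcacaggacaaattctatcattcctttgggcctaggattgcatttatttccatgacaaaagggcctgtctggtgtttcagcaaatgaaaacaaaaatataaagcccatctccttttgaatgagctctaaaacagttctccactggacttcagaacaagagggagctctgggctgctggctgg
ERBB2 (GRCh38.p14, chr17:39687844-39688143, plus strand): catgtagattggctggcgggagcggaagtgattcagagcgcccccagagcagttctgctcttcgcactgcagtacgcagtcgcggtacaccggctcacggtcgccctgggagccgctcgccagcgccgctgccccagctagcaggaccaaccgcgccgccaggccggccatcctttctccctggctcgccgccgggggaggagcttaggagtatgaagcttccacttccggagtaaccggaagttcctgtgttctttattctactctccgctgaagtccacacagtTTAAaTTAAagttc

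In the EPHA2 promoter the TTAA at chr1:16156065-16156068, 1 base downstream of the annotated start, held a site in 12 of 12 deep libraries. Its peak height, the highest coverage over the peak as the authors list it, had a lowest value of 18, a median of 68 and a highest value of 111. The other TTAA of the same window, 80 bases upstream of the start, held none in any of the 27 libraries. In the EGFR window the TTAA at chr7:55109665-55109668, 174 bases upstream of the second start, held a site in 12 libraries with heights from 8 to 44, while the TTAA that begins 18 bases before it held none. The EGFR window at the first start has 1 TTAA, which held no site. In the ERBB2 window both TTAA lie downstream of the start, at 36 and 41 bases, and each held a site in 1 library. The MET, IGF1R, BRAF and PIK3CA windows hold no TTAA, which says only that these letters are absent from those 300 bases.

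MET, the receptor for hepatocyte growth factor, was the densest of the 8 genes in insertions. It lies at chr7:116672196-116798377 on the plus strand (GRCh38, as all positions that follow), and its window of 146.182 kb contains no other coding gene. It held 5.15 ± 0.199 sites per 10000 (SD, n = 3, as for all group values) in WT_PB, with single libraries at 4.94, 5.33 and 5.18. The WT_hyPB libraries stood at 6.51, 6.51 and 6.22, the WT_rePB libraries at 4.57, 4.33 and 4.26, and the WT_rehyPB libraries at 4.70, 5.24 and 5.52. Every WT_hyPB library was above every WT_PB library, and every WT_rePB library below it. Per kb of window, MET ranked at the 99.8th percentile of coding genes in the pooled deep libraries and at the 98.6th, 98.8th and 99.7th in the short, symmetric and piggyBat pools.

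MET held a larger share of sites with the hyperactive form. Averaged over both transposase backgrounds the log2 change was 0.28 ± 0.04 (SE; adjusted p = 3.1e-05), a fold of 1.21, by limma voom over 7293 genes with Benjamini-Hochberg adjustment. MET was the 1 of 8 members called at adjusted p under 0.05, where 3.17% of all genes tested were called, 1.52% as higher and 1.65% as lower. With the re-engineered form the share fell by 0.27 on the log2 scale (SE 0.04; limma voom, adjusted p = 2.8e-05), again the 1 of 8 called, where 7.86% of all genes were, 2.96% as higher and 4.9% as lower. Both calls held in all 22 alternatives run for each, among them the linked libraries averaged (adjusted p = 1.0e-04 and 1.1e-04). The hyperactive change did not differ detectably between the backgrounds (interaction -0.08 ± 0.09, adjusted p = 0.80 in limma voom), and 0 of 8 members were called for the interaction, where 0.0274% of genes were, all as higher (0.0% as lower), and where 798 of 7293 had an unadjusted p under 0.05.

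None of the other 7 members passed the test for either change. EPHA2 came closest, with a log2 change of 0.58 ± 0.18 (SE, limma voom adjusted p = 0.054) for the hyperactive form and -0.43 ± 0.18 (adjusted p = 0.12) for the re-engineered one. Its hyperactive change passed without WT_PB replicate 2 (limma voom, adjusted p = 0.046), without WT_hyPB replicate 3 (adjusted p = 0.038) and with each strand's positions counted apart (adjusted p = 0.036). For ERBB3 the hyperactive change was 0.42 ± 0.19 (limma voom, adjusted p = 0.21). For EGFR it was 0.12 ± 0.06 (adjusted p = 0.31 in limma voom), with an interval from -0.01 to 0.25, and its change with re-engineering was -0.17 ± 0.06 (adjusted p = 0.090). IGF1R changed by 0.04 ± 0.08 and -0.17 ± 0.08 (limma voom, adjusted p = 0.81 and 0.16), and the second value passed without WT_PB replicate 2 (-0.24, adjusted p = 0.046). For ERBB2, BRAF and PIK3CA adjusted p lay between 0.44 and 0.89 in limma voom. The 95% intervals for PIK3CA ran from -0.24 to 0.34 and from -0.22 to 0.36, so changes of that size cannot be told from none. Over the 8 members the median change was 0.15 for the hyperactive form, against 0.04 over all genes tested, and -0.16 with re-engineering, against -0.01.

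**Figure D1:**
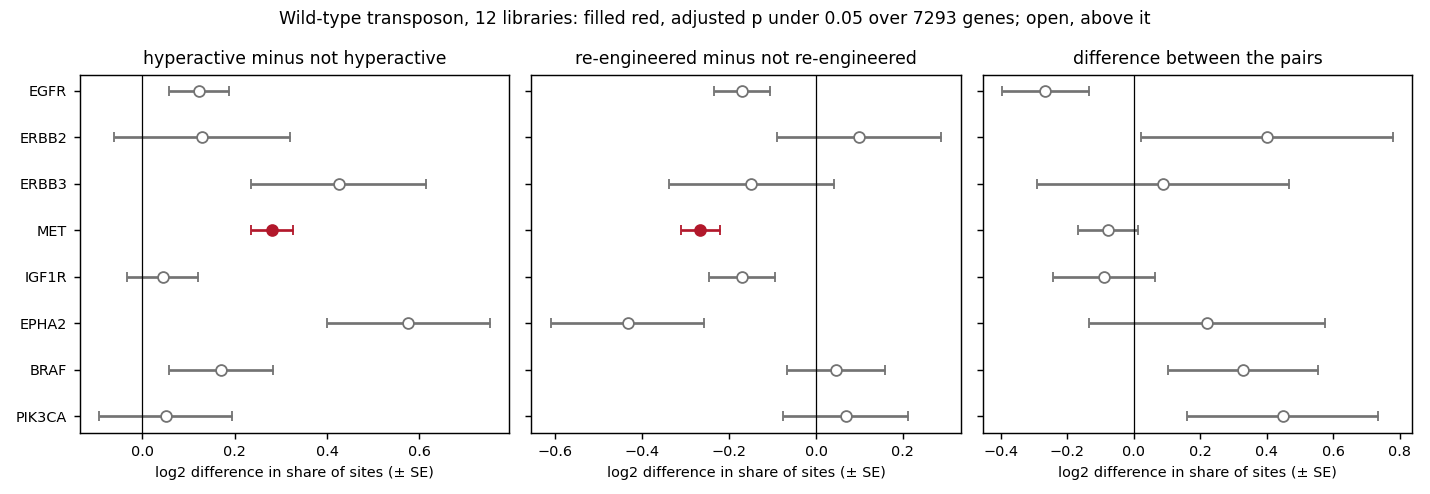
Log2 difference in the share of sites (x axis, points, with SE as bars) for each of the 8 genes (y axis) in the 12 deep libraries, for the hyperactive form, the re-engineered form and the difference between the pairs of groups. Filled red points passed adjusted p under 0.05: MET at 0.28 and at -0.27.

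MET held more of the sites outside the deep libraries. The symmetric libraries stood at 15.6, 14.2 and 12.7 per 10000 in sym_rePB and at 17.7, 10.5 and 13.1 in sym_rehyPB, all above the deep libraries. These values rest on 4 to 7 sites per library. The piggyBat libraries stood at 26.5, 27.5 and 30.4 per 10000 (19, 19 and 27 sites), a mean of 28.1 ± 2.06 or 5.46 times that of WT_PB. Replicates 1 and 3 of WT_PBat are linked, so the SD and the test take them as more separate than they are. The short libraries scattered from 4.34 to 14.1 and overlapped the deep ones. Each was compared with the wild-type transposon moved by the same transposases, and piggyBat with WT_PB. The log2 change was 1.67 ± 0.14 for the symmetric transposon (SE; limma voom, adjusted p = 1.9e-07), 2.49 ± 0.16 for piggyBat (adjusted p = 5.4e-07) and 0.48 ± 0.24 for the short transposon (adjusted p = 0.096). The last value passed without short_PB replicate 3 (0.67, limma voom, adjusted p = 0.025) and without short_hyPB replicate 2 (0.65, adjusted p = 0.036). The piggyBat call held in all 18 alternatives that tested MET, among them the linked libraries averaged.

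These 3 comparisons called most of what they could test, so a call of MET there says little about MET. For the symmetric transposon 135 genes were tested and 86.7% called, 83.7% as higher and 2.96% as lower. For piggyBat 1261 were tested and 78.7% called, 71.5% as higher and 7.22% as lower. For the short transposon 821 were tested and 63.0% called, 48.2% as higher and 14.7% as lower. Of the members 1 of 1 tested was called for the symmetric transposon, 2 of 3 for piggyBat and 0 of 3 for the short transposon. The median log2 change of all genes tested was 2.08, 1.95 and 0.58. A gene can pass the filter through the shallow libraries alone, but MET would have passed in all 3 comparisons at the level of its reference groups. Relative to that median MET was at -0.40 for the symmetric transposon, 0.54 for piggyBat and -0.10 for the short one. With libraries scaled so that the median gene tested did not move, the symmetric value turned to -0.51 (limma voom, adjusted p = 0.010), the short value to -0.31 (adjusted p = 0.27), and the piggyBat value stayed positive at 0.50 (adjusted p = 0.018). The share of calls that were higher fell under that scaling from 96.6% to 49.0% for the symmetric transposon, from 90.8% to 47.0% for piggyBat and from 76.6% to 45.3% for the short one.

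An alternative kept, in the reference libraries of each comparison, only as many of the tallest sites as the shallow libraries hold. MET then stood at 10.7 per 10000 in the deep reference (exact Clopper-Pearson 95% interval 6.79 to 16.1, 23 sites) against 14.0 (9.42 to 19.9, 30 sites) in the symmetric pool, and the change no longer passed (0.45, limma voom adjusted p = 0.26). For piggyBat the values were 8.71 (5.32 to 13.5, 20 sites) against 28.3 (21.9 to 36.1, 65 sites), with a change of 1.75 (adjusted p = 0.0020). In the short comparison the order turned, at 10.96 (54 sites) in the deep reference against 8.32 (41 sites), with a change of -0.41 (limma voom, adjusted p = 0.31). All intervals cover counting error only, since sites recur between libraries and reads carry no molecular identifiers.

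**Figure D2:**
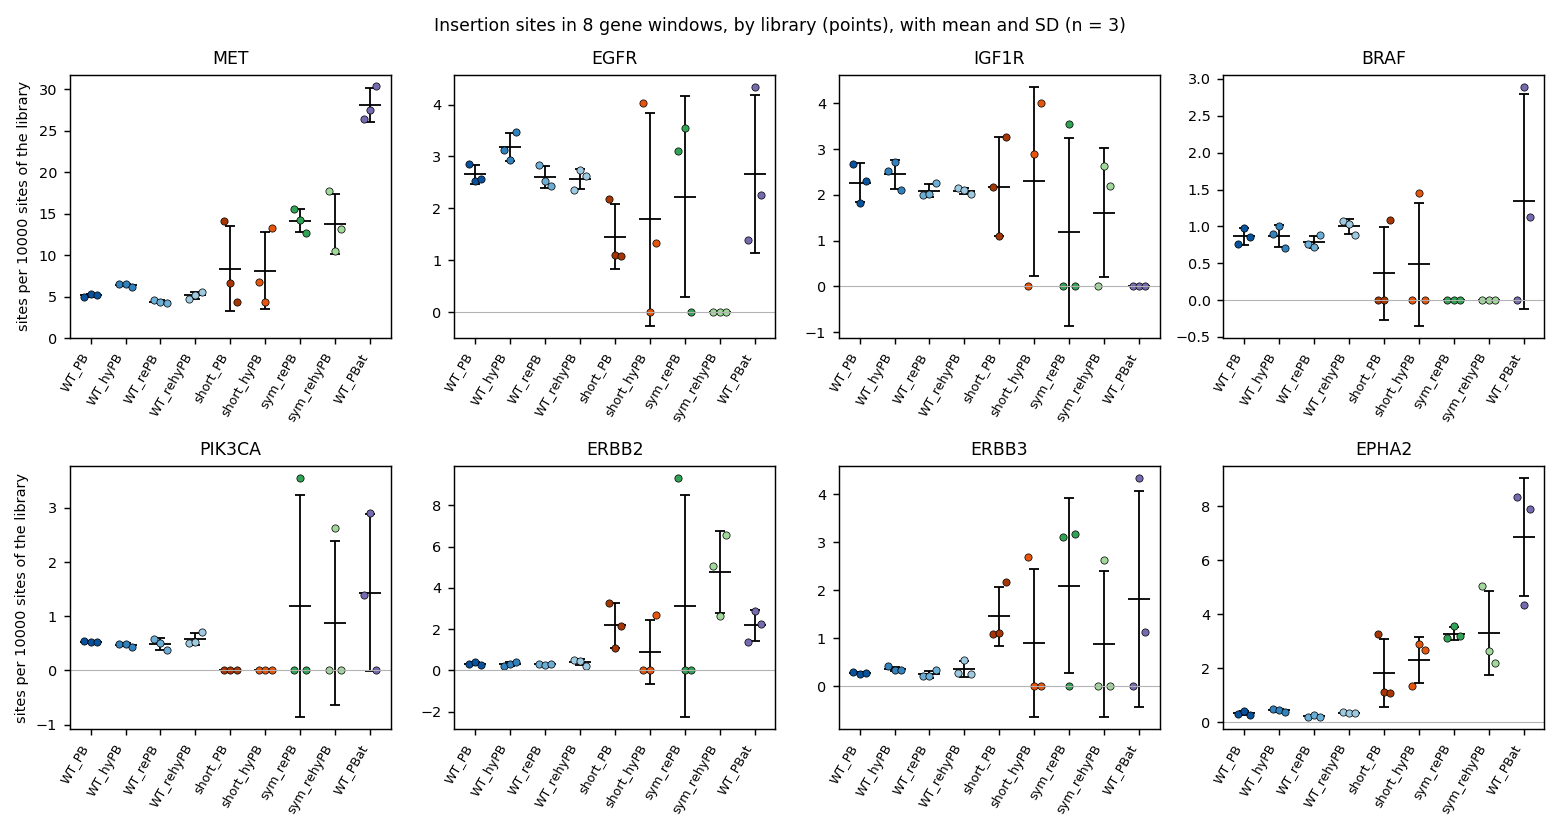
Insertion sites per 10000 sites of the library (y axis, own scale per panel) in each of the 8 gene windows, for 9 groups (x axis). Points are libraries, the horizontal mark is the mean and the bars are SD (n = 3), which can reach below 0 where most libraries hold 0 sites. The 3 piggyBat libraries sit at 26.5 to 30.4 in MET, above all other libraries, and at 0 in IGF1R.

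EPHA2, an ephrin receptor that responds to ligands on neighbouring cells, is a small gene at chr1:16124337-16156069 on the minus strand. In the deep libraries it was sparsely hit, with 10 to 20 sites per library, group means of 0.321, 0.442, 0.216 and 0.345 per 10000 and a density at the 75.4th percentile of coding genes. In short_PB its libraries stood at 3.26, 1.11 and 1.09 and in short_hyPB at 1.34, 2.90 and 2.66. In sym_rePB they stood at 3.11, 3.55 and 3.18, in sym_rehyPB at 5.06, 2.63 and 2.19, and in WT_PBat at 8.35, 4.35 and 7.89. Of all coding genes 42.3%, 64.2% and 59.3% held no site in the short, symmetric and piggyBat pools. All 15 shallow libraries held at least 1 EPHA2 site, though many rest on 1 site. Each was thus above every deep library by arithmetic: 1 site there is worth over 1 per 10000, and EPHA2 exceeded 0.484 in no deep library. Pooled, its level was 2.03 per 10000 in short (10 sites, interval 0.973 to 3.73), 3.26 in symmetric (7 sites, 1.31 to 6.71) and 6.97 in piggyBat (16 sites, 3.98 to 11.3), which was 6.33, 10.2 and 21.7 times the deep level.

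Among the shallow comparisons EPHA2 passed the filter for piggyBat only, at a log2 change of 4.50 ± 0.34 (SE; limma voom, adjusted p = 1.0e-06). It entered that test through its piggyBat level alone, so it had to differ, and the call supports nothing by itself. Relative to the median gene tested it stood 2.55 higher. With the tallest deep sites as reference its change was 1.67 (limma voom, adjusted p = 0.018), from 4 sites among 22956 against 16 among 22957. Against the symmetric pool the same reference held 0 EPHA2 sites of 21492, which allows up to 1.40 per 10000, against 7 of 21490, and against the short pool 9 of 49278 against 10 of 49279, a change of 0.09 (limma voom, adjusted p = 0.89). Without a filter EPHA2 was called higher for the short (2.71) and symmetric (4.02) transposons, and for the short one also with a flank of 50 kb (2.11). The fits without a filter called most genes, so those calls say little about EPHA2. The counts of genes called with the 50 kb flank and with the tallest sites are given in the closing section. EPHA2 peaks in piggyBat had a median height of 17.5, against 7 over all piggyBat sites.

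The ERBB family showed no common course. EGFR, the receptor for epidermal growth factor, lies at chr7:55019017-55211628 on the plus strand and was second in density among the 8 in every deep library. Its mean was 2.65 ± 0.177 per 10000 for WT_PB and 3.18 ± 0.267 for WT_hyPB. The re-engineered groups stood at 2.60 ± 0.212 (WT_rePB) and 2.57 ± 0.197 (WT_rehyPB). The WT_hyPB libraries, at 3.12, 2.94 and 3.46, were above the WT_PB libraries, at 2.86, 2.54 and 2.57, while WT_rehyPB and WT_rePB overlapped. The hyperactive change of EGFR did not pass (limma voom, adjusted p = 0.31), and WT_hyPB replicates 1 and 2 are linked. In shallow libraries EGFR held 0 to 3 sites each. Its pooled level was 1.62 in short (8 sites, interval 0.701 to 3.20), 0.931 in symmetric (2 sites, 0.113 to 3.36) and 2.61 in piggyBat (6 sites, 0.959 to 5.69), beside 2.75 in the deep pool. Its rank by density went from the 97.0th percentile of coding genes in the deep pool to the 72.5th, 69.4th and 76.5th. Ranks can move without the level: IGF1R went from the 78.6th to the 68.8th in short at 1.01 times its deep level. The EGFR density itself was 0.0123 sites per 10000 per kb in piggyBat against 0.0129 in the deep pool. The lower EGFR rank in piggyBat thus shows no fall in level. The short-transposon change was -0.61 ± 0.29 (limma voom, adjusted p = 0.079), which passed without short_hyPB replicate 1 (-0.93, adjusted p = 0.0060). The piggyBat change was 0.22 ± 0.32 (adjusted p = 0.55 in limma voom), with an interval from -0.50 to 0.93, and under median scaling it was -1.77 (adjusted p = 8.0e-04).

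ERBB2, which has no known ligand and signals by pairing with other ERBB receptors, lies at chr17:39688094-39728658, with PGAP3, MIEN1 and GRB7 also in its window. It held 0.321, 0.303, 0.295 and 0.401 sites per 10000 in WT_PB, WT_hyPB, WT_rePB and WT_rehyPB, 9 to 18 sites per library. In sym_rehyPB its 3 libraries stood at 5.06, 2.63 and 6.56 (2, 1 and 3 sites), and in sym_rePB at 9.34, 0 and 0. The symmetric pool thus held 4.19 per 10000 (9 sites, interval 1.92 to 7.95), 13.0 times the deep level, and the short and piggyBat pools held 1.62 (8 sites) and 2.18 (5 sites). ERBB3, a receptor with little kinase activity of its own that partners ERBB2, spans chr12:56080108-56103505. Its pooled levels were 0.303 in deep, 1.22 in short (6 sites), 1.40 in symmetric (3 sites) and 1.74 in piggyBat (4 sites). With the tallest deep sites as reference, ERBB3 held 6 of 49278 against 6 of 49279 for short. It held 3 of 21492 against 3 of 21490 for symmetric, and 2 of 22956 against 4 of 22957 for piggyBat. In the same references ERBB2 held 0, 0 and 0 sites, against 8, 9 and 5. Of the ERBB3 sites only 21.9% lay inside the gene's bounds in the deep pool. The share was 16.7% in short, 33.3% in symmetric and 0% in piggyBat, and the ERBB3 window also holds PA2G4. Neither ERBB2 nor ERBB3 passed the filter in the shallow comparisons. Without a filter both were called higher in all 3 in limma voom, ERBB2 by 2.46, 3.62 and 3.09 for short, symmetric and piggyBat and ERBB3 by 2.22, 3.04 and 2.63, in fits that call most genes.

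IGF1R, the receptor for insulin-like growth factors, is the longest of the 8 at 315.992 kb (chr15:98648539-98964530, plus strand). Its group means in the deep libraries ran from 2.09 to 2.44 per 10000 and overlapped. The short pool held 2.23 (11 sites, interval 1.11 to 3.99), 1.01 times the deep level of 2.22, and the short-transposon change was 0.03 ± 0.35 (limma voom, adjusted p = 0.94; 95% interval -0.72 to 0.78). The symmetric pool held 1.40 (3 sites). In piggyBat 0 of 22957 sites fell in the IGF1R window, which allows a level of up to 1.31 per 10000. That bound lies below the deep level, and every WT_PB library, at 2.67, 1.82 and 2.30, was above it. It counts the linked piggyBat libraries as separate. With them averaged the bound would be higher, and the WT_PB library at 1.82 would no longer be above it. IGF1R missed the filter for the symmetric transposon and for piggyBat. For piggyBat it was called lower in the 2 alternatives that tested it. The changes were -1.80 with no filter and -2.35 against the tallest sites (limma voom, adjusted p = 0.0062 and 0.0064). These values are no bound because all piggyBat libraries stood at 0. The fit with no filter called most genes, and 59.3% of all coding genes held no piggyBat site. For the symmetric transposon IGF1R stood at 0.22 with no filter (adjusted p = 0.56 in limma voom).

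BRAF and PIK3CA, the members that act inside the cell, had the lowest densities of the 8 in the pooled deep libraries. BRAF (chr7:140713328-140924929, minus strand) held 0.863, 0.869, 0.789 and 0.999 sites per 10000 in WT_PB, WT_hyPB, WT_rePB and WT_rehyPB and ranked at the 46.0th percentile of coding genes in the deep pool. It held 2 sites in the short pool, 3 in piggyBat and 0 of 21490 in the symmetric pool, which allows up to 1.40 per 10000, above its deep level of 0.865, so no fall was detectable there. PIK3CA (chr3:179148126-179240093, plus strand) held 0.530, 0.472, 0.486 and 0.575 per 10000 in the same groups. It held 0 of 49279 sites in the short pool (up to 0.609 allowed, above its deep level of 0.514), 2 in the symmetric pool and 3 in piggyBat.

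Per kb of window, the order in the deep libraries was MET (median 0.0357 sites per 10000 per kb), EGFR (0.0126), EPHA2 (0.0066), ERBB3 (0.0065), IGF1R (0.0063), ERBB2 (0.0050), PIK3CA (0.0046) and BRAF (0.0038). MET was above EGFR, and EGFR above EPHA2, in 12 of 12 libraries. Below that the order was loose: EPHA2 was above ERBB3 in 5 of 12 libraries, IGF1R above ERBB2 in 8 and PIK3CA above BRAF in 10. The median coding gene stood at 0.0040 in the deep pool. In the piggyBat pool the order began with MET (0.194), EPHA2 (0.135), ERBB3 (0.0401, on 4 sites, none inside the gene) and ERBB2 (0.0360, on 5 sites). EGFR stood at 0.0123 there.

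**Figure D3:**
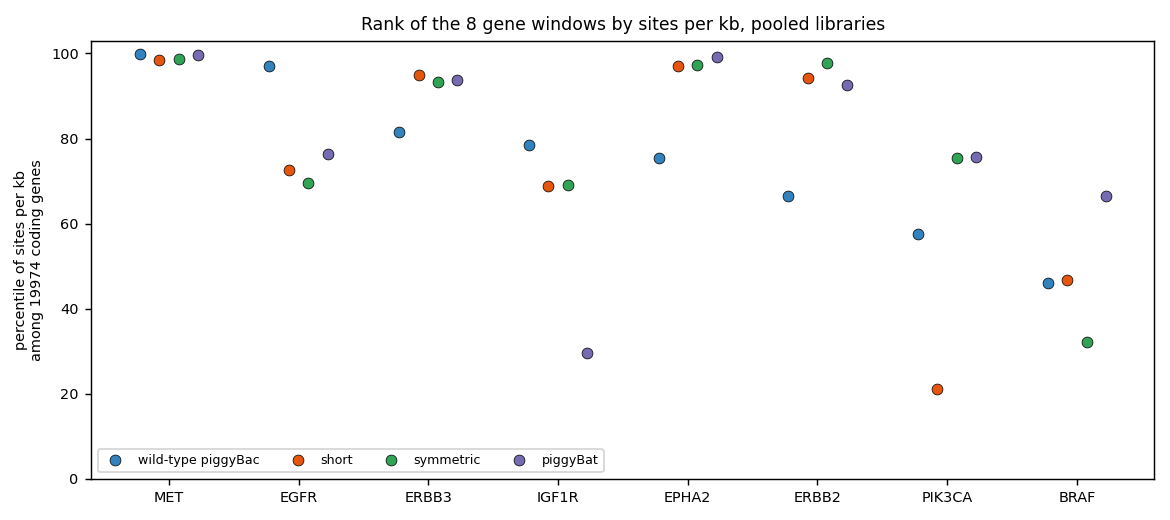
Percentile of each gene window among 19974 coding genes by sites per kb (y axis) in the deep (wild-type piggyBac), short, symmetric and piggyBat pools (colours). MET stays above the 98th percentile in all pools. EGFR ranks at 97.0 in the deep pool and lower in the others, also in piggyBat, where its sites per kb were near the deep value. Windows with 0 sites (IGF1R in piggyBat, BRAF in symmetric, PIK3CA in short) take the middle rank of all genes with 0.

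The 8 windows together, 1194.052 kb, held 12.4 ± 0.250 sites per 10000 for WT_PB and 14.5 ± 0.394 for WT_hyPB. The values for WT_rePB and WT_rehyPB were 11.1 ± 0.308 and 12.5 ± 0.548. They held 17.5 in the short pool (86 sites, interval 14.0 to 21.5), 26.1 in symmetric (56 sites, 19.7 to 33.8) and 44.4 in piggyBat (102 sites, 36.2 to 53.9). MET made up 41 of the 86, 30 of the 56 and 65 of the 102 sites, and 2751 of the 6596 in the deep pool.

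Within MET the sites of the shallow pools crowded towards the 5′ part of the gene. In piggyBat 24 of 65 sites lay in the first 10 kb past the annotated start and 11 in the next 10 kb. In the symmetric pool 16 of 30 and in the short pool 14 of 41 lay 10 to 20 kb past the start. In each of these pools 6 of them were 1 position, 17.7 kb past the start, found in all 6 libraries. The deep libraries were spread more evenly: 317 of 2751 in the first 10 kb, 320 in the next, and most, 423, between 30 and 40 kb. Over single libraries, 26.3% to 42.1% of piggyBat sites lay within 10 kb of the start, against 17.4% to 18.4% in WT_PB, without overlap, and the 3 against 3 libraries allow no exact permutation p below 0.1. None of the 65, 41 and 30 shallow sites lay in the 10 kb upstream of the start, where 175 of the 2751 deep ones did. The higher piggyBat share near the start was not particular to MET. For 8921 coding genes of 20 kb and more it was 37.3% in piggyBat, against 23.3% in the deep pool. The pooled piggyBat share in MET was 36.9%. Of the short and symmetric MET sites 6 of 41 and 6 of 30 lay within 10 kb of the start. These shares were below the 35.02% and 37.24% of those coding genes.

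In EPHA2, too, sites gathered around the start. In the deep pool 75.1% of its sites lay within 10 kb of the start, a stretch that makes up 38.7% of the window. In the short and symmetric pools all 10 and all 7 did. In piggyBat 9 of 16 did, and another 5 lay in the 10 kb past the gene's 3′ end. PIK3CA (41.0% of sites in 17.9% of the window) and ERBB2 (51.8% in 33.0%) were also denser near the start in the deep pool. Over 8921 coding genes of 20 kb and more, 23.3% of deep sites lay in the 15.2% of the length within 10 kb of the start. EGFR (7.38% in 9.41%) and IGF1R (4.96% in 5.95%) were not denser there: the densest EGFR tile in the deep pool was centred 55 kb past the first start and the densest IGF1R tile 215 kb past its start. ERBB3 sites lay at both flanks, 57 of 160 in the 10 kb before the lower bound and 73 of 160 in the 10-kb tile that spans the upper bound.

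**Figure D4:**
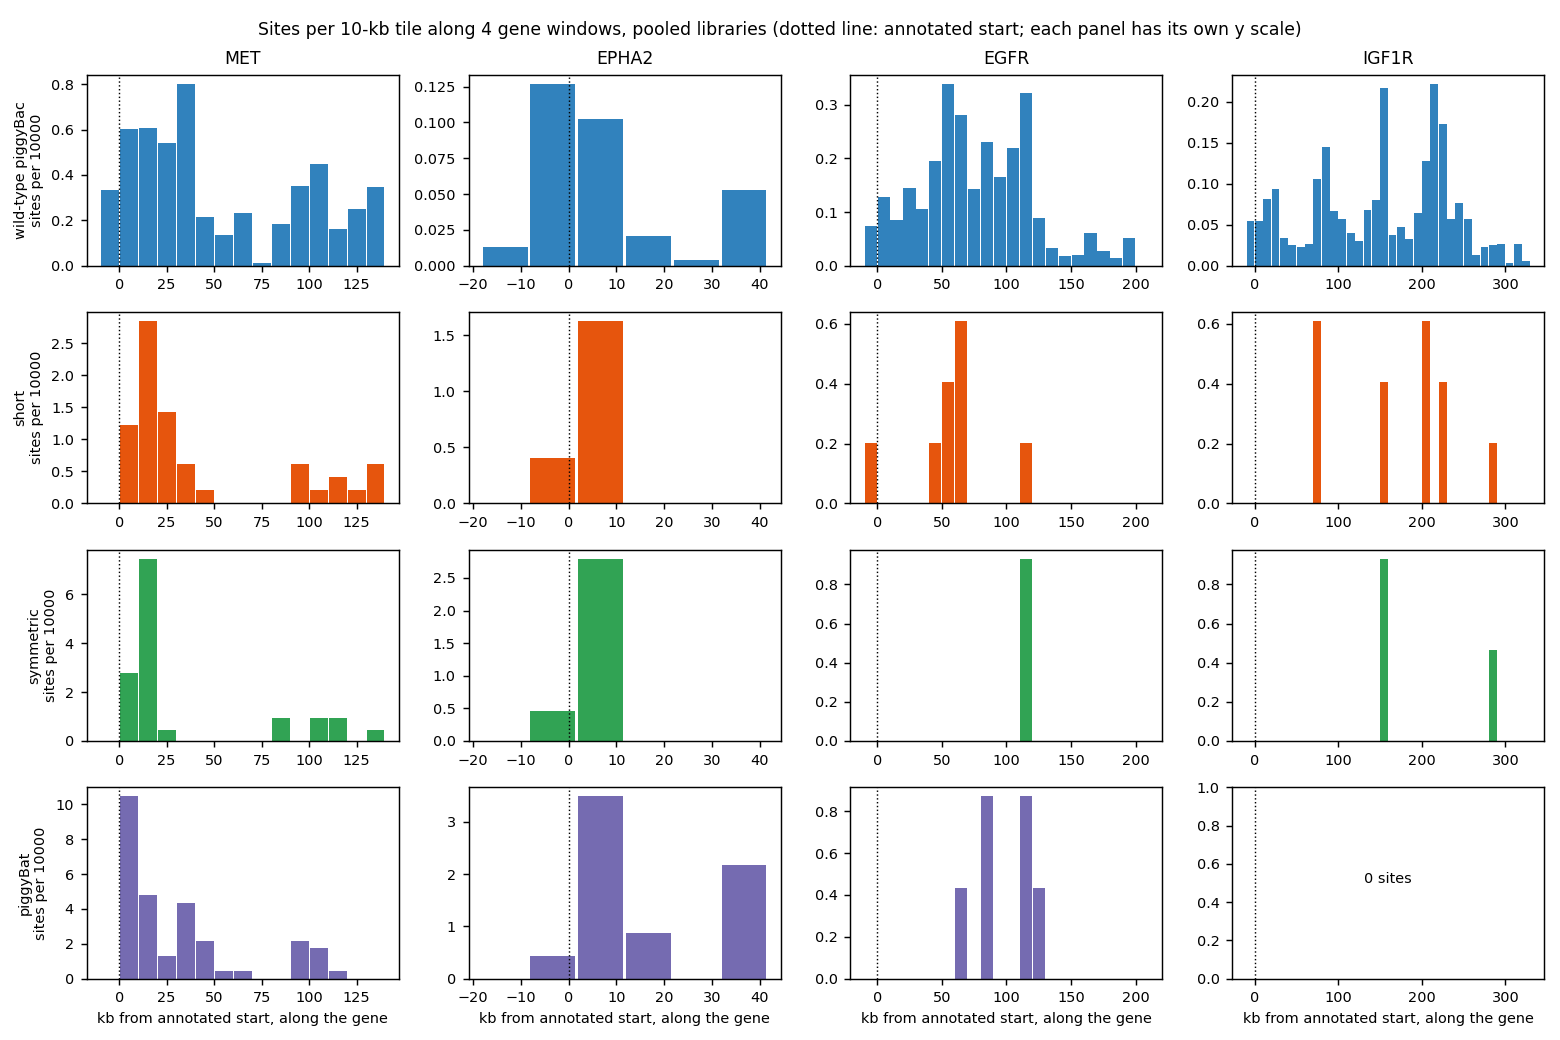
Sites per 10000 (y axis, own scale per panel) in 10-kb tiles along the windows of MET, EPHA2, EGFR and IGF1R (columns) against distance from the annotated start in kb (x axis), for the 4 pools (rows). The last tile of a gene ends at the window. The tallest MET bar lies at 0 to 10 kb in piggyBat and at 10 to 20 kb in the short and symmetric pools.

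Some positions were hit again and again. In MET the 4 bases at chr7:116689875-116689878, 17.7 kb past the start, held a site in 21 of 27 libraries, namely 8 deep ones, all 6 short, all 6 symmetric and 1 piggyBat. Genome-wide only 276 of 2955284 positions were found in as many libraries. A position 1.34 kb past the MET start recurred in 17 libraries, 12 of them deep. In EPHA2 chr1:16147477-16147480, 8.59 kb past the start, recurred in 16 libraries of 7 groups. Of all distinct positions in MET, 68.8% were listed in more than 1 library, against 36.3% of positions genome-wide. The share was 64.4% in EPHA2, 56.9% in ERBB3, 53.2% in EGFR and 47.8% in ERBB2. It was 39.3% in IGF1R, 31.4% in BRAF and 27.0% in PIK3CA. These shares count the linked libraries too and were not adjusted for how densely a window was hit.

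The strand of a peak tells on which strand the transposon's transcript ran. Inside all coding genes whose strand was known, 36.8% of peaks in the deep pool lay on the gene's own strand, with single libraries between 34.8% and 39.2%. MET (37.5%, 980 of 2612), ERBB2 (36.1%) and EPHA2 (37.6%) were near that share, and IGF1R (31.4%) and BRAF (31.1%) were lower. EGFR was evenly split, with 769 of 1539 peaks on its own strand (exact 95% interval 47.4 to 52.5%). The share ran from 45.2% to 54.2% over libraries and was above the share of all coding genes in 12 of 12. Among 5852 coding genes with at least 90 peaks inside, 91.7% had a lower share than EGFR. Of the same genes 38.9% had a lower share than IGF1R and 37.7% a lower share than BRAF, so neither was unusual. EGFR was singled out after its value was seen, and no test was made. In the shallow pools EPHA2 leaned the other way from coding genes, with 7 of 8 short, 6 of 6 symmetric and 7 of 10 piggyBat peaks on its own strand, while coding genes stood at 41.4%, 42.1% and 41.2%. The exact 95% intervals ran from 47.3 to 99.7%, 54.1 to 100% and 34.8 to 93.3%, and the last covers the coding share. They take peaks as independent, though EPHA2 positions recurred between these libraries and piggyBat replicates 1 and 3 are linked.

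**Figure D5:**
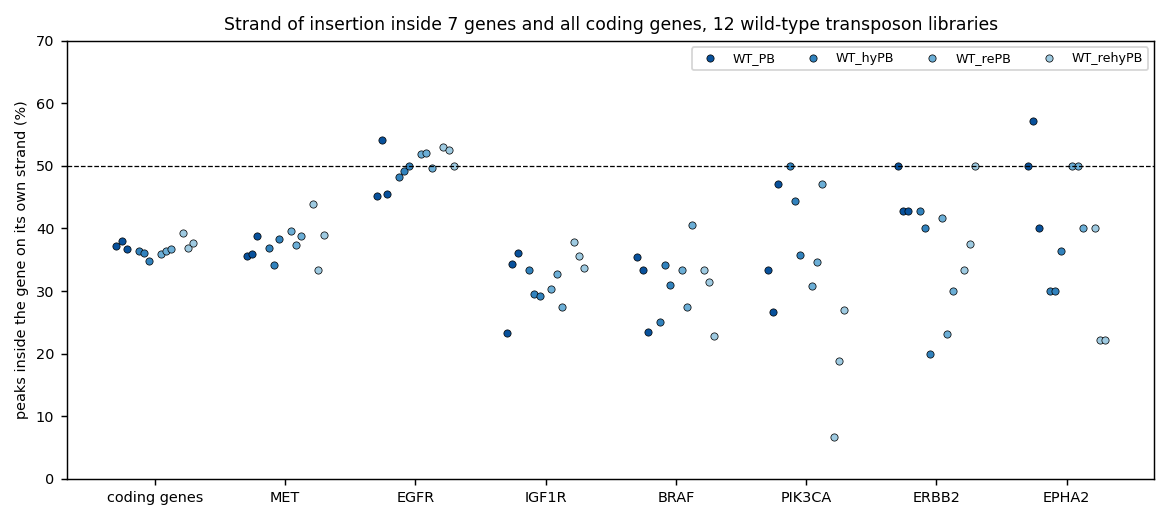
Share of peaks inside a gene that lie on the gene's own strand (y axis, %), for all coding genes and 7 of the 8 genes (x axis), 1 point per deep library, coloured by group. The dashed line marks 50%. EGFR lies between 45.2% and 54.2%, above the 34.8% to 39.2% of all coding genes, while IGF1R is below all coding genes in every library.

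Over the 9 group means of log2(sites per 10000 + 0.1), the gene on another chromosome whose pattern was most like that of each member was EZR for MET (Pearson r = 0.99), NHS for EGFR (0.99), SMAD3 for EPHA2 (0.99), STK33 for BRAF (1.00), CPED1 for IGF1R (0.99), SHB for ERBB3 (0.98), PTPN4 for PIK3CA (0.98) and GSN for ERBB2 (0.97). This is a description over 9 points that share libraries, among 3213 to 3407 candidates, and 67 genes reached r of 0.9 or more with MET and 128 with EPHA2.

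Other genes of the pathway were counted from lists of 68 receptors, ligands, RAS-MAPK and PI3K components and inhibitors. For the hyperactive form 43 of them held enough sites, of which 4 rose and 1 fell, where 1.52% of all genes tested were called higher and 1.65% lower. The 3 largest changes were those of DUSP4, a phosphatase that turns off MAP kinases (0.51 ± 0.13 on the log2 scale, limma voom adjusted p = 0.022), SPRY4, an inhibitor of receptor signalling (0.51 ± 0.15, adjusted p = 0.045), and ERBB4, an ERBB receptor (-0.45 ± 0.05, adjusted p = 8.1e-08). Of 6 inhibitors tested 3 rose. None of 12 RAS-MAPK genes passed, and the lists were not tested against each other. With libraries scaled to the median gene tested, 2 of the 43 rose and 1 fell, 1 of the 6 inhibitors rose, and SPRY4 no longer passed (0.48, limma voom adjusted p = 0.062). With re-engineering 2 of 43 rose and 2 fell, where 2.96% of all genes were called higher and 4.9% lower, and after scaling 3 rose and 2 fell. Among those called were the receptor gene KIT (0.65 ± 0.20, limma voom adjusted p = 0.034), and the ligand genes BTC (0.40 ± 0.13, adjusted p = 0.044) and EREG (-0.36 ± 0.07, adjusted p = 7.8e-04). The median change over the 43 was 0.02 in both comparisons, beside 0.04 and -0.01 over all genes tested, and none of the 43 was called for the interaction.

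Outside the deep libraries far fewer of the 68 could be tested. For the short transposon 6 of 9 tested rose and 2 fell, where 48.2% of all genes were called higher and 14.7% lower. The largest changes were those of SHC1, an adaptor between receptors and RAS (2.68 ± 0.36 on the log2 scale, limma voom adjusted p = 1.4e-05), the kinase gene AKT2 (2.58 ± 0.41, adjusted p = 6.7e-05) and ERBB4 (-2.44 ± 0.21, adjusted p = 2.8e-07). SHC1 and AKT2 passed the filter only through the short libraries, so they had to be higher there. ERBB4 held 172 to 217 sites in each WT_PB library, 0 or 1 in each short_PB library and 0 in each short_hyPB library, so its fitted change depends on the sites that voom adds. Scaled to the median gene tested, 2 rose and 2 fell. For the symmetric transposon 2 of 2 tested rose, EREG (2.04 ± 0.20, limma voom adjusted p = 8.1e-07) and RPTOR, a part of mTOR complex 1 (0.67 ± 0.28, adjusted p = 0.041). Scaled to the median gene tested, neither rose: RPTOR turned to -1.52 (limma voom, adjusted p = 4.1e-04) and EREG to -0.15 (adjusted p = 0.52). Both passed the filter only through the symmetric libraries. For piggyBat 8 of 12 rose and 2 fell, and 5 rose and 4 fell after scaling to the median gene. The largest changes were those of 3 inhibitors, SPRY4 (4.03 ± 0.30, limma voom adjusted p = 1.0e-06), ERRFI1 (3.65 ± 0.25, adjusted p = 7.4e-07) and the phosphatase gene DUSP6 (3.30 ± 0.32, adjusted p = 3.6e-06). All 3 passed the filter only through the piggyBat libraries, so they had to be higher there and their calls support nothing. ERRFI1, which restrains EGFR and its relatives, stood at 13.4 ± 2.0 per 10000 in WT_PBat against 1.12 ± 0.10 in WT_PB. The shares called over all genes in these comparisons were 63.0%, 86.7% and 78.7%.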

How the data were processed

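Each of the 27 libraries came as 1 deposited list of peaks whose values are coverage signal: a sum over the peak and its highest value (height), with none under 5 listed. Per the submitters' processing notes cutadapt 3.4 and HISAT2 2.2.1.0 were used, with the builds hg38 and GRCh38.p5 named; the peak caller and any removal of duplicates are not given in the sources used here. A last column, 1 constant per file, was used only to match depth. A site was the peak start on the plus strand or its end minus 3 on the minus strand, counted once per library. Genes and promoter sequences are NCBI RefSeq's (GRCh38.p14); exons and a genome sequence were not used. Sites per coding gene, with 10 kb flanks, were tested with limma 3.58.1 voom in R 4.3.3 (0.5 sites added, library size all sites, Benjamini-Hochberg over all genes tested) after a filter of 10 expected sites in the smallest deep library, or 1 in comparisons with shallow ones. The scripts were tested on simulated data. The files hold no expression values, so the cell line was not checked against markers. The 8 genes and the pathway lists were chosen with earlier results of these data known. Besides the 8 genes, up to 3 called pathway genes per comparison with the largest change, and the gene most alike in pattern, were named by rule. Replicate numbers were not used to pair libraries in the main fits.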

Additional observations from a re-analysis of the deposited data

How the results depend on the processing

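For the hyperactive form the count of 231 became 607 with a flank of 50 kb, 88 with heights of 10 and above, 120 with no filter and 110 with linked libraries averaged. Leaving out 1 library gave 106 to 222, with 106 without WT_hyPB replicate 2, 114 without WT_hyPB replicate 1, 147 without WT_PB replicate 3, 151 without WT_rePB replicate 2, and 153 without WT_rePB replicate 3 or without WT_rehyPB replicate 2. For re-engineering the count of 573 became 975 with 50 kb and 369 with a stricter filter, and leaving out 1 library gave 369 (WT_hyPB replicate 2) to 569. The interaction count of 2 became 9 with no flank, 8 with 50 kb, 4 with heights of 10 and above, 5 per strand, 5 under median scaling, 20 with a stricter filter and 1 with no filter, and ranged from 1 to 18 with 1 library left out. For the short transposon 517 became 290 with no flank, 2016 with 50 kb, 30 with heights of 10 and above, 58 with a stricter filter, 16368 with no filter, 9 at matched depth and 130 with the tallest sites. For the symmetric transposon 117 became 69, 472, 8, 15, 18366, 2 and 27 in the same order. For piggyBat 992 became 514, 3107, 169, 118, 15089, 3 and 537. The causes were not tested. At matched depth 14, 14 and 4 genes were left to test, none of them a member. Leaving out 1 library gave 498 to 613, 114 to 153 and 940 to 1220.

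Of the member results, 2 reversed, both under median scaling: MET with the symmetric transposon to -0.51 and EGFR with piggyBat to -1.77. The summed share of the 8 genes was 33.0 per 10000 in the symmetric pool with 50 kb, and in piggyBat 38.3 with no flank, 52.3 with 50 kb and 62.2 with heights of 10 and above. With 1 library left out it ranged from 15.5 to 18.6 in short, 24.6 to 27.3 in symmetric and 42.4 to 46.9 in piggyBat. limma-trend with a pseudocount of 1, added after seeing the data, gave 1.36 for MET with the symmetric transposon and 2.24 for MET and 2.53 for EPHA2 with piggyBat. In limma voom, re-engineering calls were gained for EPHA2 (-0.36 with 50 kb, -0.56 per strand) and EGFR (-0.20 with no flank, -0.19 per strand). EGFR was also called for the short transposon with no flank (-0.64), 50 kb (-0.83), per strand (-0.71) and under median scaling (-1.40), and MET with a stricter filter (0.48). The causes of these changes were not tested.

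Replicate numbers are shared between groups, but same-numbered deep libraries correlated only from -0.03 to 0.02 in their deviations. The range was -0.07 to 0.07 in the short comparison, -0.24 to 0.32 in the symmetric one and -0.04 to 0.07 for piggyBat. Mean correlations there were 0.001, -0.03 and 0.02. With the replicate block the counts were 222, 559, 2, 492, 117 and 986, the MET changes 0.28, -0.27, 1.67 and 2.49, and no member call changed.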
